A study of Mus musculus with 2 samples.

Results

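The cells described here were cycling intermediate progenitor cells (IPCs) of the mouse cerebral cortex at embryonic day 16.5. They were chosen from 2 single-cell RNA-seq libraries by 3 conditions on unique molecular identifiers (UMIs, each the count of 1 captured transcript). A cell had to hold 2 or more UMIs of *Eomes*, the T-box factor that marks IPCs, and no UMI of the interneuron genes *Gad1*, *Gad2*, *Dlx1* and *Dlx2* or of the Cajal-Retzius gene *Trp73*. It also had to hold 2 or more UMIs of *Mki67*, *Top2a* and *Cenpf* together, genes transcribed in dividing cells. Among barcodes with 1500 to 60000 UMIs and under 10% mitochondrial UMIs, 124 of 16213 cells met all 3 conditions. These were 47 of 5966 cells (0.788%) in WT replicate 1 and 77 of 10247 cells (0.751%) in WT replicate 2.

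Both libraries came from wild-type (WT) embryos of the EomesDot series, described by its submitters as control animals of an *Eomes-Cre* mouse line. The cortex was dissociated with papain and loaded on a 10x Genomics 3' v3.1 chip, and the labels name no sort or treatment. Both libraries have the same genotype, so the comparisons below are between cell populations within the same libraries. The labels do not say whether a library was 1 embryo or a pool. Each SE comes from the fit described below, whose estimate of the spread draws on all genes and all populations of these 2 libraries. It does not measure how far a single gene repeated in them, or how embryos differ.

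IPCs are basal progenitors of the subventricular zone. They arise from radial glial cells (RGCs), carry the transcription factors NEUROG2 and INSM1, and divide a limited number of times before their daughters become excitatory neurons. RGCs line the ventricle, keep Notch targets such as *Hes1* and *Hes5* active, and express the transcription factors PAX6 and SOX2. Newborn IPCs and their neuronal daughters present Delta ligands to neighbouring RGCs.

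The reference populations came from the same libraries. Non-cycling IPCs (226 and 307 cells in replicates 1 and 2) passed the same *Eomes* and exclusion conditions and had no UMI of the 3 cycle genes. Cycling RGCs (46 and 49 cells) had no *Eomes*, 1 or more UMIs of *Pax6*, 2 or more of *Hes1* and *Hes5* together, no *Olig1* or *Olig2*, and passed the same cycle gate. Non-cycling RGCs (26 and 41 cells) differed from them in having no cycle UMI. Excitatory neurons (1827 and 3010 cells) had no *Eomes*, no cycle UMI and 2 or more UMIs of *Neurod2* and *Neurod6* together.

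The libraries held 46398156 and 64324236 UMIs over 9049 and 13556 barcodes, with a median of 5706 and 4938 UMIs per kept cell. A total of 40 barcodes occurred in both libraries, 21 of them among the kept cells, and they were treated as separate cells. The members were deep cells: their median was 12407 UMIs (range 2608 to 24227) in replicate 1 and 9814 (2726 to 28276) in replicate 2, against 8114 and 7008 for non-cycling IPCs. In replicate 1, 14 members (29.8%), and in replicate 2, 20 members (25.97%), belonged to the barcodes with the highest Scrublet doublet scores, a set that held 7.24% and 10.8% of all kept cells. Each comparison was therefore repeated without that set. The automatic Scrublet threshold marked 0 and 251 cells of the libraries and was not used.

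The members carried the markers that had not been used to choose them. *Neurog2* or *Insm1* was detected in 44 of 47 members (93.6%) and in 73 of 77 (94.8%), against 183 of 226 (81.0%) and 232 of 307 (75.6%) non-cycling IPCs and 37.8% and 29.2% of the excitatory neurons. With every cell thinned to 1500 UMIs, the shares were 55.3% and 64.9% of members, 45.1% and 48.9% of non-cycling IPCs, and 11.2% and 9.90% of neurons. Of the markers of other lineages, *Sox10* was at 0 in both libraries and *Olig2* at 4 and 5 UMIs. Endothelial genes summed to 3 UMIs in replicate 1 and 94 in replicate 2, where *Cldn5* alone gave 45. Erythroid genes were detected in 97.9% and 98.7% of members and in 98.7% and 99.3% of non-cycling IPCs. Genes of the interneuron list, of which the rule excluded 4, were detected in 44.7% and 36.4% of members and in 31.4% and 30.6% of non-cycling IPCs. In replicate 2, 2 members held 3 or more UMIs of vascular, meningeal or microglial genes, and in replicate 1 none did.

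Many members sat close to the limits of the rule. The median *Eomes* count was 3 and 4 UMIs, with 11 and 14 members at exactly 2. The median count of *Mki67*, *Top2a* and *Cenpf* together was 8 in both libraries, with 5 and 13 members at exactly 2. Just outside lay 13 and 32 cells with 1 *Eomes* UMI, 30 and 53 with 1 cycle UMI, and 27 and 43 that failed only through an excluded gene, most often *Gad2* (21 and 30 cells). Over the members, *Mki67* summed to 204 and 242 UMIs, *Top2a* to 508 and 642, and *Cenpf* to 408 and 445.

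Promoters of 3 cycle genes are shown because the S phase and the G2/M genes are known to be controlled through different promoter elements. *Mki67* and *Top2a* belong to the cycle gate, and *Mcm6* is shown as an S phase gene. The sequences start 250 bases before a RefSeq transcript start on GRCm38.p6 and stop where the annotated gene begins, which left 179, 240 and 250 bases, written 5′ to 3′ on the strand of the gene. All 3 genes lie on the minus strand. In *Mki67* (chr7:135716451-135716629) and *Top2a* (chr11:99024200-99024439), capitals mark the cell cycle genes homology region (CHR) letters TTTGAA or TTCGAA read on either strand. In *Mcm6* (chr1:128359706-128359955), a subunit of the replicative helicase, capitals mark the E2F letters TTTGGCGC or TTTCGCGC on either strand, of which 2 sites overlap.
Mki67: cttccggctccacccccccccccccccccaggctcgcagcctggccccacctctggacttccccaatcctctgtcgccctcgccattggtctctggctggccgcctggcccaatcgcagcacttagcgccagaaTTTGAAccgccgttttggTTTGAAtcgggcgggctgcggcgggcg
Top2a: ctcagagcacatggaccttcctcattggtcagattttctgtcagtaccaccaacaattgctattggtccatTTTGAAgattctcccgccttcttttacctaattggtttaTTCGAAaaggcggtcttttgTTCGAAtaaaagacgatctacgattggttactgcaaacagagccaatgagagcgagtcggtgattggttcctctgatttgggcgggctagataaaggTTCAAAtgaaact
Mcm6: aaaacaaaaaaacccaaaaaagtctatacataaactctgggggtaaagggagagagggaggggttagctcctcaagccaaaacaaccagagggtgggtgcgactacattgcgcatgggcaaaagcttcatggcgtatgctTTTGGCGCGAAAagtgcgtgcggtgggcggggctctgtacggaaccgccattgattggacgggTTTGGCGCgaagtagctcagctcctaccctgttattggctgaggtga

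*Mki67* held 2 CHR matches, *Top2a* 4, and *Mcm6* 3 E2F matches. Shares were counted over the whole 250 bases before each start. Of the 54 G2/M genes 47 matched a RefSeq window, and 22 of these (46.8%) held the CHR letters, as did 6 of 31 matched S phase genes (19.4%) and 19.6% of all 27025 genes. The E2F letters stood in 6 of the 31 S phase genes (19.4%), in 2 of the 47 G2/M genes (4.26%) and in 0.759% of all genes. These are matches of letters in a fixed window and were not tested for binding.

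The first question was how many *Eomes*-positive cells were cycling. Of the cells that met the *Eomes* and exclusion conditions, 47 of 303 (15.5%, exact 95% interval 11.6 to 20.1) passed the cycle gate in replicate 1 and 77 of 437 (17.6%, 14.2 to 21.5) in replicate 2. The mean was 16.6% ± 1.49 (SD, n = 2 libraries). RGCs and excitatory neurons were taken for this share without their conditions on cycle UMIs. For RGCs the share was 46 of 78 cells (59.0%, 47.3 to 70.0) and 49 of 102 (48.0%, 38.0 to 58.2), with a mean of 53.5% ± 7.73. Excitatory neurons, which do not divide, gave 41 of 2001 (2.05%) and 84 of 3379 (2.49%), which was taken as the background of this gate. Without thinning, the IPC share lay between these in both libraries and its intervals did not reach either. Intervals cover counting error only. Because the gate chose the cells, the shares are a description without a test. Without the high Scrublet barcodes the IPC share was 13.3% ± 1.99, and with every cell thinned to 1500 UMIs before gating it was 6.86% and 5.43%, against 0.645% and 1.10% of neurons. Only 8 and 11 RGCs still met their conditions after thinning, of which 0 (exact interval 0 to 36.9%) and 3 (27.3%, 6.02 to 60.97) passed the gate, so the order of IPCs and RGCs could not be told at that depth.

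**Figure D1:**
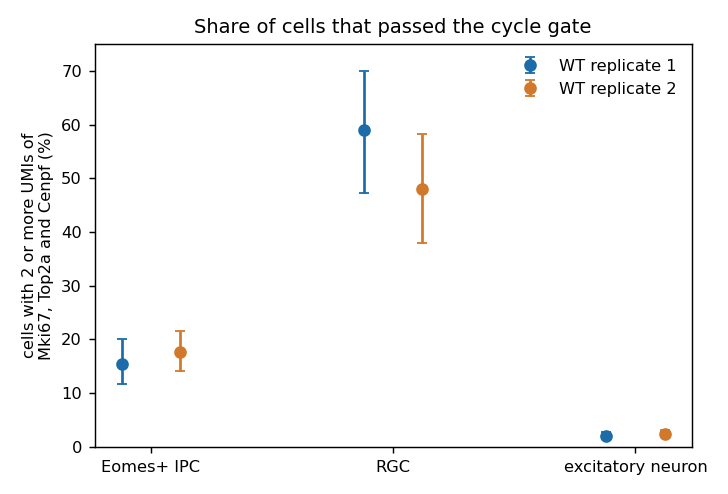
Percent of cells with 2 or more UMIs of *Mki67*, *Top2a* and *Cenpf* among *Eomes*-positive IPCs, RGCs and excitatory neurons, with 1 point per library and exact 95% binomial intervals. The IPC points (15.5% and 17.6%) lie between the RGC points (59.0% and 48.0%) and the neuron points (2.05% and 2.49%).

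The next comparison asked what distinguished cycling from non-cycling IPCs other than the cycle itself. UMIs were summed per library and population, and 10 sums were fitted together with edgeR's quasi-likelihood test, the library as a block and Benjamini-Hochberg adjustment. Of 15062 genes tested 1937 (12.9%) differed, 960 (6.37%) higher and 977 (6.49%) lower in the cycling cells. With the size factors of DESeq2 in the same fit, 1113 were higher and 705 lower. The median log2 fold change over all genes was -0.15, and list medians below should be read against it. All levels are counts per 1000000 UMIs of the population in a library (CPM), and a lower level of a gene is a smaller share of the population's UMIs.

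The cycle lists are what the gate selects, and they are given as a description. Of the S phase genes 41 of 43 were higher (median log2 fold change 2.27), and of the G2/M genes outside the gate 50 of 51 (median 5.08). The named genes with the largest increase were also mitotic. *Depdc1b* stood at 60.04 and 52.6 CPM in the 2 libraries of members and at 0 UMIs in non-cycling IPCs, at least 75.4-fold higher. The mitotic kinesin *Kif20a* stood at 58.4 and 41.3 CPM against 0 UMIs, at least 65.9-fold higher. The kinase *Plk1* was at 68.2 and 68.9 CPM, and the cyclin *Ccnb1* at 206 and 227 CPM against 1.602 and 1.84.

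*Insm1*, a zinc finger factor that promotes the basal progenitor state (chr2:146221997-146225020, GRCm38.p6), was higher in the cycling IPCs. Its level was 297 and 219 CPM in the members and 120 and 102 CPM in non-cycling IPCs, so both libraries of members lay above both of the others. The share of all genes that separate in this way was not counted, here or below. The log2 fold change was 1.16 ± 0.13 (SE, adjusted p = 1.11e-08). It was detected in 87.2% and 77.9% of members against 50.0% and 41.7% of non-cycling IPCs, and after thinning to 1500 UMIs in 31.9% and 28.6% against 14.6% and 15.3%. *Insm1* was the only one of 19 tested IPC identity genes that was higher, a count near the 6.37% of all genes.

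Of the 19 IPC identity genes, 9 were lower in the cycling cells, with a list median of -0.47. *Neurog2*, the proneural bHLH factor (chr3:127632733-127635636), stood at 289 and 353 CPM in the members and at 463 and 451 CPM in non-cycling IPCs. The groups did not overlap, and the log2 fold change was -0.55 ± 0.12 (adjusted p = 0.00111), a call that was lost with DESeq2. It was detected in 80.9% and 84.4% of members against 67.7% and 66.4% of non-cycling IPCs, and after thinning in 29.8% and 45.5% against 36.3% and 41.4%. The early differentiation gene *Nhlh1* was at 3.25 and 3.76 CPM against 18.7 and 13.3, a log2 fold change of -2.19 ± 0.69 (adjusted p = 0.0278). *Kif26b* fell by 0.92 on the log2 scale and the neuronal RNA-binding gene *Elavl4* by 0.69. *Hes6* (250 and 262 CPM against 273 and 224) and *Btg2* (104 and 91.4 against 135 and 128) did not pass the test. *Sstr2*, a somatostatin receptor, was at 73.0 and 80.2 CPM against 103 and 102, and its difference of -0.46 ± 0.17 missed the threshold (adjusted p = 0.0733). Among cells of 4000 to 15000 UMIs 7 genes of the list were lower, with 3 or more *Eomes* UMIs 8, without the high Scrublet barcodes 5 and with DESeq2 2, and 1 was higher each time.

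*Eomes* itself, used by the rule, stood at 399 and 490 CPM in the members and at 712 and 639 CPM in non-cycling IPCs. Since the limit was a fixed number of UMIs, deeper cells could pass at a lower CPM, and no test was made of this gene.

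Genes of excitatory neurons were lower or not called, with 11 of 25 lower, none higher and a list median of -0.37. With 3 or more *Eomes* UMIs 5 were lower and 1 higher, and in a fit of only the compared populations 8 were lower and 2 higher. *Neurod1*, a bHLH factor of newborn neurons, was at 69.8 and 68.9 CPM in the members and at 176 and 150 CPM in non-cycling IPCs, a log2 fold change of -1.27 ± 0.16 (adjusted p = 8.39e-08). Both libraries of members lay below both of the non-cycling cells. The guidance ligand *Sema3c* fell by 0.81 on the log2 scale, the netrin receptor *Unc5d* by 0.77, *Sox5* by 0.77 and the neuronal tubulin *Tubb3* by 0.75. *Neurod6* (398 and 416 CPM against 515 and 513) fell by 0.39 and *Tbr1* (48.7 and 55.1 against 71.0 and 81.2) by 0.59. These last 2 calls were lost with DESeq2 size factors.

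Of 24 radial glial genes tested, 2 were higher and 2 lower in the cycling IPCs, with a median of 0.10 against -0.15 for all genes. These counts were near the 6.37% higher and 6.49% lower of all genes. The list median turned to -0.09 among cells of 4000 to 15000 UMIs and to -0.03 with 3 or more *Eomes* UMIs. Without the high Scrublet barcodes 4 were higher and 1 lower, without cells holding vascular, meningeal or microglial UMIs 5 and 0, and with DESeq2 size factors 2 and 0. The fatty acid binding protein gene *Fabp7* was at 1099 and 1606 CPM against 664 and 860, a log2 fold change of 0.77 ± 0.11 (adjusted p = 7.37e-07), and the tyrosine phosphatase *Ptprz1* at 346 and 301 CPM against 196 and 245. The *Ptprz1* call was lost with DESeq2, without the library block and among cells of 4000 to 15000 UMIs. *Vim* and *Dbi* were the 2 lower genes, and both calls were lost with DESeq2 size factors. *Sox2* stood at 97.4 and 113 CPM against 96.1 and 92.7, a difference of 0.12 ± 0.17 that did not pass the test (adjusted p = 0.761). *Sox2* and *Neurod1* were detected together in 9 of 47 and 16 of 77 members, *Sox2* without *Neurod1* in 14 and 23, *Neurod1* without *Sox2* in 9 and 16, and neither in 15 and 22. After thinning to 1500 UMIs both were detected in 0 and 1 members and neither in 38 and 58.

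Among 36 tested genes for receptors and ligands of the signalling families, 12 were lower and 1 was higher (median -0.25). Of all genes 6.49% were lower and 6.37% higher. The ephrin receptor *Ephb1* was at 14.6 and 11.3 CPM in the members against 42.7 and 38.1, and fell by 1.70 ± 0.37 on the log2 scale. The chemokine *Cxcl12* was at 21.1 and 23.8 CPM against 51.3 and 62.9, a log2 fold change of -1.40 ± 0.26 (adjusted p = 0.000102). *Epha4* stood at 415 and 313 CPM against 532 and 400, a smaller difference of -0.40 ± 0.11 (adjusted p = 0.011) that was not called with DESeq2. *Nlgn1* was at 552 and 537 CPM against 736 and 753, and fell by 0.50 ± 0.11, a call that was lost with 3 or more *Eomes* UMIs. *Ephb2*, at 56.8 and 61.4 CPM against 39.5 and 35.8, was the gene that was higher, a call that was lost with DESeq2, with no count filter, without the high Scrublet barcodes, among cells of 4000 to 15000 UMIs and with 3 or more *Eomes* UMIs. *Erbb4* was at 19.5 and 17.5 CPM against 14.4 and 25.7, with no call.

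Of 27 Notch pathway genes 1 was higher and 2 were lower, counts near the background of all genes (6.37% higher and 6.49% lower), and the called genes are given as single genes. *Notch2* stood at 34.1 and 36.3 CPM in the members and at 16.02 and 17.4 CPM in non-cycling IPCs, a log2 fold change of 1.02 ± 0.28 (adjusted p = 0.0109). This call was lost without the high Scrublet barcodes and among cells of 4000 to 15000 UMIs. *Numb*, which encodes an inhibitor of Notch signalling, and *Maml3*, a coactivator, were the lower genes. The Delta ligands *Dll1* (29.2 and 17.5 CPM against 19.8 and 17.4) and *Dll3* (13.0 and 26.3 against 18.7 and 21.6) overlapped between the populations.

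Of 16 genes of DNA methylation 4 were higher and 1 was lower, beside 6.37% higher and 6.49% lower of all genes. The count of lower genes was near that share. *Uhrf1*, which recruits the maintenance methyltransferase to replicating DNA and is also an S phase gene, was at 76.3 and 81.4 CPM against 4.27 and 4.13. *Dnmt1*, the maintenance methyltransferase, was at 105 and 125 CPM in the members and at 33.6 and 37.2 CPM in non-cycling IPCs, a log2 fold change of 1.66 ± 0.19 (adjusted p = 6.45e-09). The readers *Mbd4* and *Mbd2* were also higher, by 1.63 ± 0.42 and 1.10 ± 0.32 on the log2 scale. *Gadd45g*, which is also an IPC identity gene, fell by 0.50 on the log2 scale, a call that was lost with DESeq2, without the high Scrublet barcodes and among cells of 4000 to 15000 UMIs. Of 25 cyclins, cyclin-dependent kinases and their inhibitors 15 were higher and none lower, beside 6.37% higher and 6.49% lower of all genes. The 15 include *Ccne2* and *Cdk1* of the cycle lists, and the count follows the cycle gate in part. *Ccnd2*, at 690 and 554 CPM against 320 and 326, rose by 0.89 ± 0.12 on the log2 scale, whereas *Ccnd1* (43.8 and 47.6 against 20.3 and 31.7) missed the threshold and the cell cycle inhibitor *Cdkn1c* (34.1 and 50.1 against 80.1 and 60.6) was not called.

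The named genes with the largest decrease were *Ctsf*, *Nxph4*, *Tshz2*, *Unc5c*, *Tafa1*, *Lingo2*, *Mctp1*, *Tafa2*, *Prox1* and *Cdh12*. The homeobox gene *Prox1* stood at 4.87 and 7.51 CPM in the members and at 25.6 and 28.0 CPM in non-cycling IPCs, a log2 fold change of -2.13 ± 0.50 (adjusted p = 0.0024). The neurexophilin gene *Nxph4* was at 3.25 and 3.76 CPM against 24.0 and 23.4. The netrin receptor *Unc5c* was at 1.62 and 8.77 CPM against 42.7 and 26.2, with 130 and 151 CPM in excitatory neurons. *Cdh12*, a cadherin, was at 6.49 and 11.3 CPM against 33.1 and 34.9, with 396 and 356 CPM in excitatory neurons. The calls for *Tafa1* and *Mctp1* were lost with DESeq2, and that for *Lingo2* without the high Scrublet barcodes.

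Globin transcripts moved with this comparison. The 6 erythroid genes summed to 339 and 631 CPM in the members, 572 and 1690 CPM in non-cycling IPCs and 1810 and 4328 CPM in excitatory neurons, and 4 of 5 tested were lower in the members (none without the library block). Of the other lists, 1 of 6 endothelial genes was higher (*Cldn5*, at 1.62 and 56.4 CPM against 3.74 and 11.01) and 1 of 6 meningeal genes was lower, and no call was made for 8 interneuron, 1 oligodendrocyte lineage, 4 mural, 8 microglial and 3 Cajal-Retzius genes. The part of these transcripts in the differences above was not tested.

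**Figure D2:**
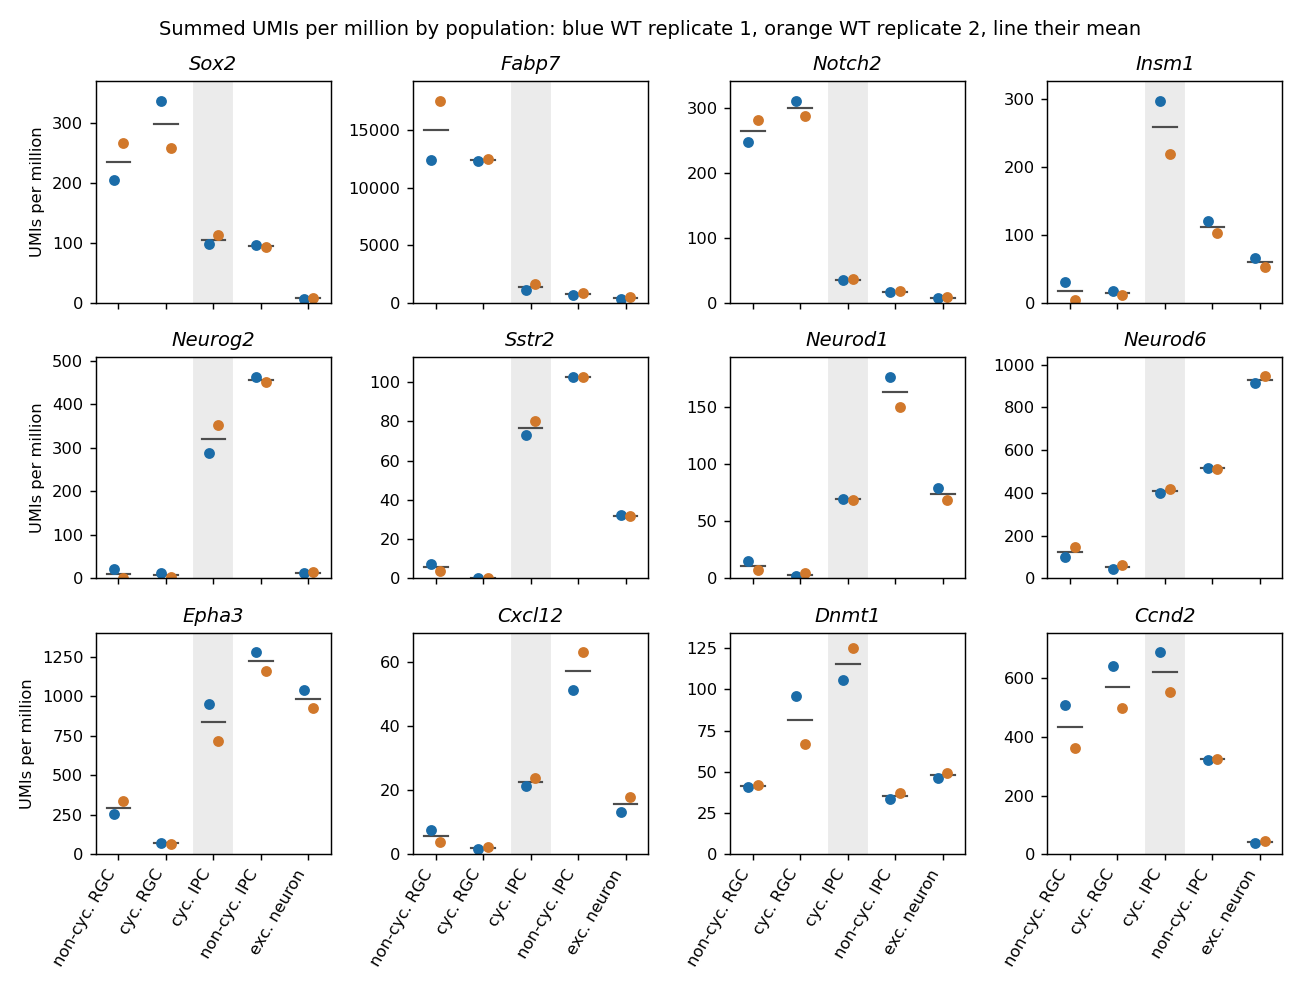
Counts per 1000000 UMIs (CPM) of 12 genes in 5 populations, with 1 point per library, a line at their mean and grey shading on the cycling IPCs. *Insm1* is highest in the cycling IPCs, *Neurog2* and *Neurod1* are higher in the non-cycling IPCs, and *Sox2*, *Fabp7* and *Notch2* are highest in the RGCs.

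Cycling IPCs were then set against cycling RGCs, which had passed the same cycle gate at a similar depth (medians of 12407 and 9814 UMIs against 12075 and 8941). Of 15062 genes 1841 (12.2%) differed, 882 (5.86%) higher and 959 (6.37%) lower in the IPCs, with a median log2 fold change of -0.01. *Eomes*, *Pax6*, *Hes1* and *Hes5* separated the gates and were not tested.

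Of 19 IPC identity genes 15 were higher in cycling IPCs and none was lower, with a median log2 fold change of 3.47, or 2.85 with genes at 0 UMIs in the RGCs set to their lower bound. *Neurog2* stood at 289 and 353 CPM against 11.8 and 2.15, a log2 fold change of 5.42 ± 0.32 (adjusted p = 1.74e-16). *Insm1* (297 and 219 CPM against 16.9 and 10.8) and *Hes6* (250 and 262 against 21.9 and 25.9) were higher by 4.22 ± 0.27 and 3.47 ± 0.24. *Sstr2* gave 109 UMIs in the members and 0 in cycling RGCs, at least 27.2-fold higher, and was detected in 46.8% and 42.9% of members. The bHLH gene *Neurod4* gave 29 UMIs against 0, at least 7.23-fold higher. *Gadd45g* and *Kif26b* were higher by 4.24 and 4.44 on the log2 scale. The size differed by library, with 3.59 and 5.01 for *Gadd45g*, 7.77 and 3.43 for *Kif26b* and 4.52 and 6.77 for *Neurog2* in replicates 1 and 2 alone.

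Of 21 radial glial genes 18 were lower in the cycling IPCs, 1 was higher and the median was -2.43. *Sox2* was at 97.4 and 113 CPM against 337 and 259, a log2 fold change of -1.49 ± 0.17 (adjusted p = 8.87e-09). *Fabp7* was at 1099 and 1606 CPM against 12368 and 12501. The extracellular matrix gene *Tnc* fell by 4.74 ± 0.21 on the log2 scale, the largest decrease of the list. *Aldoc*, *Ttyh1* and *Hopx* fell by 3.46, 3.45 and 3.34. The exception was the LIM homeobox gene *Lhx2*, at 433 and 347 CPM in the IPCs against 270 and 269, which was higher by 0.55 ± 0.14.

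Of 25 neuronal genes 17 were higher and none lower, with a median of 1.203. *Neurod1* gave 98 UMIs in cycling IPCs and 3 in cycling RGCs, a ratio of 24.4 (95% counting interval 8.11 to 120). *Rnd2*, a gene of migrating neurons, was at 143 and 163 CPM against 10.1 and 6.46, and the microtubule gene *Dcx* at 323 and 326 against 32.0 and 47.4. *Neurod6* (398 and 416 CPM against 42.1 and 64.6) and *Tbr1* (48.7 and 55.1 against 5.06 and 8.62) were higher by 2.98 ± 0.18 and 2.99 ± 0.45. The cycling IPCs were therefore above the cycling RGCs and below the non-cycling IPCs for *Neurod1*, *Neurod6*, *Tbr1*, *Dcx* and *Tubb3* in both libraries.

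Of 25 tested Notch genes 5 were higher and 6 lower. *Dll1* gave 32 UMIs in cycling IPCs and 1 in cycling RGCs (ratio 23.9, counting interval 3.996 to 974), a call that was lost among cells of 4000 to 15000 UMIs, and *Dll3* 29 and 1 (ratio 21.7, 3.59 to 885). The fringe gene *Mfng*, which modifies Notch receptors, was at 84.4 and 104 CPM against 1.69 and 15.1. The receptors were lower: *Notch1* was at 45.4 and 62.6 CPM against 155 and 164, *Notch2* at 34.1 and 36.3 against 312 and 289, and *Notch3* at 16.2 and 5.01 against 35.4 and 34.5. The log2 fold changes were -1.53 ± 0.21, -3.08 ± 0.20 and -1.77 ± 0.57, the last with -1.09 and -2.66 in replicates 1 and 2 alone. The *Notch3* call was lost with DESeq2, without the high Scrublet barcodes, among cells of 4000 to 15000 UMIs and with 3 or more *Eomes* UMIs. The fringe genes and the coactivators stood on both sides, with *Lfng* lower by 3.11 ± 0.83 and *Maml2* by 1.02 ± 0.14, and *Maml3* higher by 1.84 ± 0.18. *Hes1* was at 6.49 and 6.26 CPM in the members and at 169 and 222 CPM in the RGCs. The RGCs had been chosen for the Notch targets *Hes1* and *Hes5*, and the part of that choice in the other Notch differences was not tested.

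Signalling receptors and ligands moved in both directions, with 11 of 36 higher and 8 lower (median 0.04). The netrin receptor *Dcc* was at 3289 and 2069 CPM in cycling IPCs against 253 and 121, and the ephrin receptor *Epha3* at 952 and 716 against 72.5 and 66.8, log2 fold changes of 3.86 ± 0.25 and 3.60 ± 0.17. *Cxcl12* gave 32 UMIs against 2 (ratio 11.96, counting interval 3.05 to 103). *Epha4* was at 415 and 313 CPM against 410 and 377, a difference of -0.09 ± 0.13 that did not pass the test (adjusted p = 0.75). *Nlgn1* was lower (552 and 537 CPM against 821 and 666), by -0.44 ± 0.12 on the log2 scale, and this call was lost with DESeq2. *Erbb4* was called lower at 19.5 and 17.5 CPM against 89.3 and 19.4, and 51 of the 53 UMIs of the RGCs in replicate 1 came from 1 cell. The call was lost with DESeq2, and the sign turned among cells of 4000 to 15000 UMIs.

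Both populations had been chosen by the same cycle gate, which favours like levels of cycle genes. Of 43 S phase genes 4 were higher and none lower (median 0.04), and of 51 G2/M genes 1 was higher and 4 were lower (median -0.12), beside 5.86% higher and 6.37% lower of all genes. Among cells of 4000 to 15000 UMIs 1 of 50 G2/M genes was higher and 6 were lower (median -0.48). *Rrm2*, a subunit of ribonucleotide reductase, was at 393 and 293 CPM in the IPCs against 130 and 149, a log2 fold change of 1.31 ± 0.19 (adjusted p = 2.18e-06), and the thymidylate synthase *Tyms* at 261 and 227 against 152 and 118. The tubulin *Tubb4b* was lower by 0.98 ± 0.12. *Cdk6* (376 and 348 CPM against 248 and 174) and *Cdk4* (568 and 532 against 318 and 364) were higher by 0.79 ± 0.14 and 0.72 ± 0.12. *Dnmt1* (105 and 125 against 96.1 and 66.8), *Uhrf1* (76.3 and 81.4 against 74.1 and 101) and *Ccnd2* (690 and 554 against 642 and 500) were not called, whereas the de novo methyltransferase *Dnmt3a* (55.2 and 32.6 against 200 and 101) fell by 1.80 ± 0.24. Endothelial genes summed to 4.87 and 118 CPM in cycling IPCs and 18.5 and 224 CPM in cycling RGCs, with 1 of 6 lower in the IPCs, and erythroid genes to 339 and 631 CPM against 317 and 707, with none of 5 called. Their part in these differences was not tested.

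Other genes with the largest difference were these. *Myt1*, a zinc finger repressor of progenitor genes, gave 124 UMIs against 0, at least 30.9-fold higher in cycling IPCs, and *Tfap2d* 56 against 0, at least 13.95-fold. *Clvs1* gave 291 UMIs against 3 (ratio 72.5, counting interval 24.6 to 354) and the thyroid hormone receptor *Thrb* 61 against 1 (ratio 45.6, 7.88 to 1830). On the RGC side *Minar1*, *Cfap100* and *Emp2* gave 35, 26 and 25 UMIs against 0 in the IPCs, at least 15.6-, 11.6- and 11.1-fold higher in RGCs. *Htra1* gave 70 UMIs against 1 (ratio 93.6, 16.3 to 3751). *Pmp22* stood at 77.5 and 71.1 CPM against 1.62 and 3.76 in the IPCs.

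**Figure D3:**
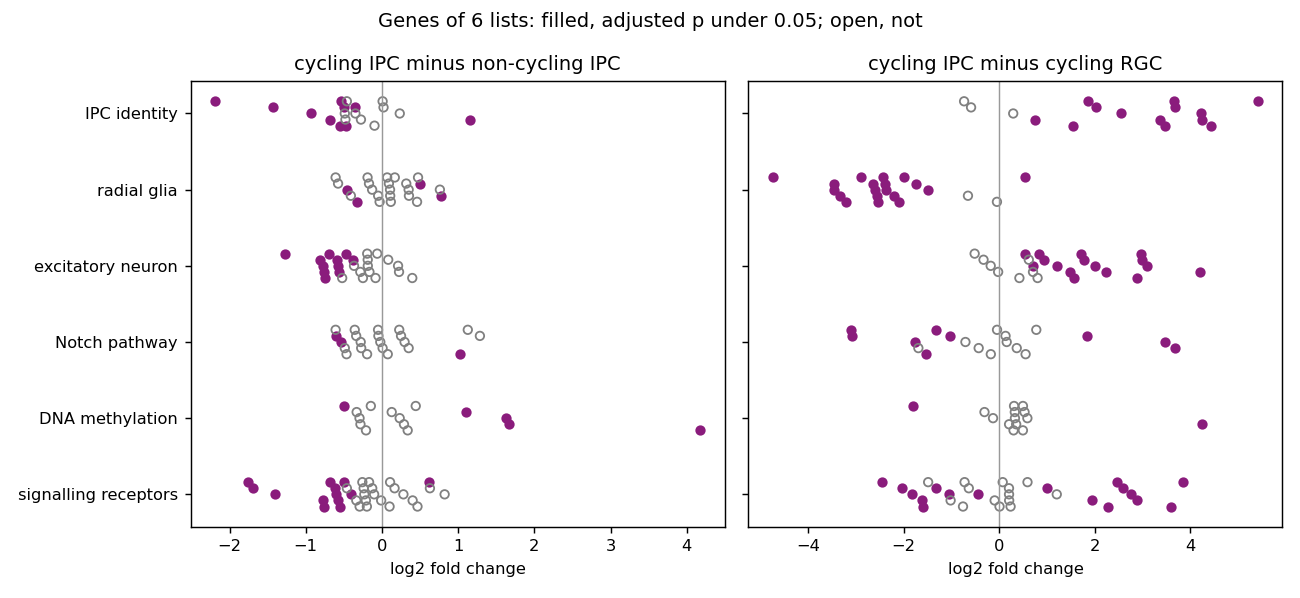
Log2 fold changes of the genes of 6 lists in cycling IPCs against non-cycling IPCs (left) and against cycling RGCs (right), 1 point per gene, filled where the adjusted p was under 0.05. Genes with 3 or fewer UMIs in either population are not drawn. The drawn IPC identity and neuronal genes lie mostly below 0 on the left (medians -0.47 and -0.37) and above 0 on the right (2.96 over 16 genes and 1.07 over 24).

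An interaction contrast in the same fit asked whether cycling went with the same change in IPCs as in RGCs. Non-cycling cells were those without a UMI of the 3 gate genes. By the phase scores described below, 6 of 26 and 11 of 41 non-cycling RGCs were in S phase (23.1% and 26.8%). Of the non-cycling IPCs 3.54% and 6.51% were. The part of these S phase cells in the contrast was not tested. Of 15062 genes 27 (0.179%) were called, 22 (0.146%) above 0 and 5 (0.0332%) below, and 1171 had an unadjusted p under 0.05. With DESeq2 size factors, which moved the median of all genes from -0.15 to -0.01, 37 were above and 3 below. The count went from 3 without the library block to 106 without the filter on low counts, so these genes are given with their levels. *Epha3* fell less with cycling in IPCs (952 and 716 CPM in cycling against 1281 and 1160 in non-cycling cells) than in RGCs (72.5 and 66.8 against 252 and 335). The interaction was 1.40 ± 0.25 on the log2 scale (adjusted p = 0.00374). The nuclear RNA *Malat1* was at 6038 and 7447 CPM in cycling and 11703 and 14357 in non-cycling IPCs, and at 10337 and 12096 CPM in cycling and 12974 and 14260 in non-cycling RGCs. Its interaction was -0.79 ± 0.13 (adjusted p = 0.000898). Besides *Epha3*, the radial glial genes *Fabp7* (0.94 ± 0.15) and *Ptprz1* (0.90 ± 0.19) were called from the lists, as were *Pcna* of the S phase list (1.13 ± 0.25) and *Jpt1* of the G2/M list (-0.88 ± 0.18). *Fabp7* and *Ptprz1* were higher in cycling than in non-cycling IPCs in both libraries, whereas in RGCs *Fabp7* was at 12368 and 12501 CPM in cycling against 12454 and 17569 in non-cycling cells and *Ptprz1* at 1542 and 1833 against 1797 and 2952. *Pcna* was at 287 and 283 CPM in cycling against 48.1 and 56.9 in non-cycling IPCs, and at 285 and 274 against 129.9 and 118 in RGCs. *Jpt1* was at 725 and 751 CPM against 597 and 630 in IPCs and at 507 and 582 against 301 and 232 in RGCs. Without the library block none of these 5 was called, and *Epha3*, *Ptprz1* and *Pcna* were not called among cells of 4000 to 15000 UMIs. With only the compared populations in the fit *Ptprz1*, *Pcna* and *Jpt1* were not called, and with 3 or more *Eomes* UMIs *Pcna* and *Jpt1* were not. *Jpt1* was also lost with DESeq2 size factors and without cells holding vascular, meningeal or microglial UMIs.

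The members were divided by phase with scores of the S phase and G2/M lists. In replicate 1, 9 cells were in S phase, 31 in G2/M and 7 in neither, and in replicate 2 the numbers were 17, 50 and 10. G2/M thus held 66.0% and 64.9% of the members and S phase 19.1% and 22.1%. The 3 gate genes include *Cenpf* and *Top2a*, which peak in G2/M, so the split follows the gate in part and is not the share of the cycle spent in each phase. For 4 and 8 members the scores lay within 0.1 of each other. Of the members called S phase or G2/M, 4 and 7 had a higher score under 0.1, close to the limit of 0 below which a cell was in neither phase. Of the 7 and 10 members in neither phase, 6 and 9 had a higher score above -0.1. The median depth was 13124 and 9443 UMIs in S phase and 13139 and 10596.5 in G2/M. S phase genes summed to 8726 and 9301 CPM in S phase cells and 3471 and 3377 CPM in G2/M cells, and to 702 and 913 CPM in the cells of neither phase.

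**Figure D4:**
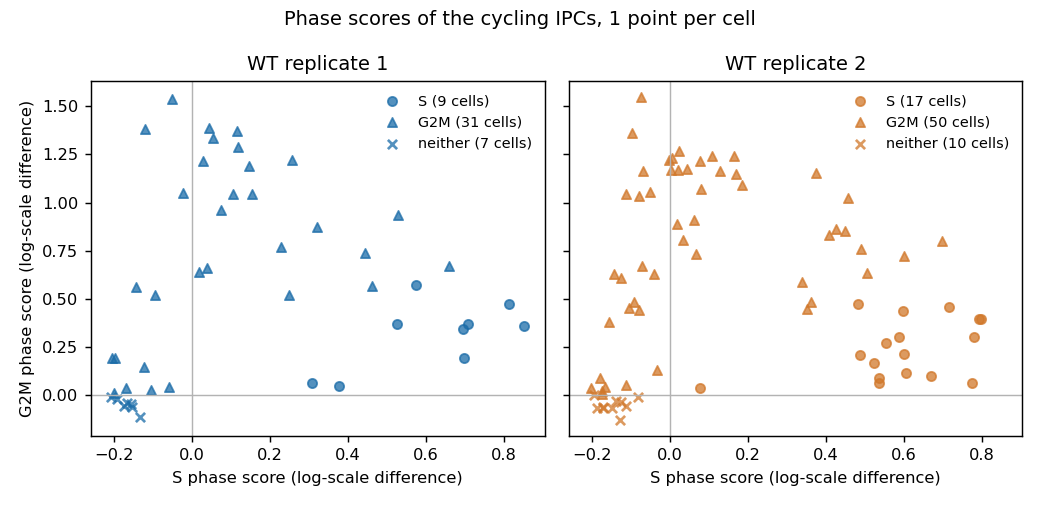
S phase score against G2/M score for each cycling IPC, by library, with circles for S phase, triangles for G2/M and crosses for neither. Most cells are triangles (31 and 50), with 9 and 17 circles and a group of crosses at scores below 0.

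Cells in S phase were compared with cells in G2/M in a fit of 14 sums. Of 15051 genes 429 (2.85%) differed, 144 (0.957%) higher and 285 (1.89%) lower in S phase. Genes of the scoring lists are a description: *Pcna*, the sliding clamp of DNA replication, was at 680 and 796 CPM in S phase against 201 and 162 in G2/M. With DESeq2 176 genes were higher and 186 lower, without the high Scrublet barcodes 85 were higher and 341 lower, and among cells of 4000 to 15000 UMIs 231 were called in all.

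Neuronal genes were lower in S phase members, with 9 of 25 called, none higher and a median of -0.76 against -0.05 for all genes. *Neurod1* stood at 15.6 and 11.9 CPM in S phase and at 97.9 and 71.6 CPM in G2/M, a log2 fold change of -2.72 ± 0.59 (adjusted p = 0.000392). *Neurod6* was at 235 and 131 CPM against 480 and 488, and fell by 1.57 ± 0.22. *Unc5d* fell by 1.29 ± 0.15, *Cux2* by 1.34 ± 0.40 and *Mef2c* by 1.83 ± 0.46 (-0.95 and -1.96 in replicates 1 and 2 alone). *Dcx* (211 and 190 CPM against 334 and 351) and *Tubb3* (133 and 208 against 287 and 369) were also called lower. With DESeq2 3 of the 25 were called, and the *Neurod1* call was lost among cells of 4000 to 15000 UMIs. Without the high Scrublet barcodes 19 of 31 and 34 of 50 G2/M members remained, and 7 of 9 and 14 of 17 S phase members.

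*Sox11* and *Sox4*, SoxC factors of early neuronal differentiation, fell as well. *Sox11* was at 977 and 1426 CPM in S phase and at 2654 and 2238 CPM in G2/M, a log2 fold change of -1.11 ± 0.13 (adjusted p = 1.76e-13). *Sox4* fell by 1.08 ± 0.15. The proneural genes *Neurog2* (242 and 446 CPM against 284 and 296) and *Insm1* (235 and 208 against 327 and 242) were not called. Of 19 IPC identity genes 1 was higher in S phase, *Rhbdl3*, and 2 were lower. The *Rhbdl3* call was lost with DESeq2, without the library block, among cells of 4000 to 15000 UMIs and with 4 or more cycle UMIs. Of 36 signalling genes 7 were lower in S phase and none higher (median -0.55), among them *Plxna4*, which fell by 1.69 ± 0.25. With DESeq2 2 of the 36 were lower, and without the library block 4.

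Of 25 cyclins, kinases and inhibitors 5 were higher and 5 lower in S phase, and of 16 DNA methylation genes 2 were higher. These counts include *Ccne2*, *Uhrf1* and *Cdk1*, which belong to the scoring lists and follow the phase call. *Ccnd1* was at 109 and 131 CPM against 28.7 and 25.7, a log2 fold change of 2.06 ± 0.42 (adjusted p = 0.000151), and *Ccnd2* at 1009 and 886 against 626 and 510, a change of 0.63 ± 0.15. Both calls were lost with 4 or more cycle UMIs per cell, and that of *Ccnd2* also among cells of 4000 to 15000 UMIs. *Dnmt1* stood at 188 and 226 CPM in S phase against 93.2 and 105, and rose by 0.96 ± 0.27 (adjusted p = 0.0215). That call was lost without the high Scrublet barcodes, among cells of 4000 to 15000 UMIs and with either stricter gate. *Ccnb1* and the inhibitors *Cdkn2d* and *Cdkn1b* were lower in S phase, by -2.69, -2.02 and -0.92 on the log2 scale. *Hes1* gave 7 UMIs in S phase members and 1 in G2/M members (ratio 22.8, counting interval 2.93 to 1026), and its call was lost in 6 of the alternatives.

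Outside the lists, *Zfp367*, a zinc finger gene, was at 133 and 95.1 CPM in S phase against 9.56 and 20.2. *Pif1*, a DNA helicase, gave 61 UMIs in G2/M members and 0 in S phase members, at least 6.25-fold higher in G2/M. The adhesion gene *Cntn5* gave 56 against 0, at least 5.74-fold, and the tubulin *Tuba1c* 45 against 0, at least 4.61-fold. The endothelial gene *Cldn5* was called higher in S phase (0 and 202 CPM against 2.39 and 18.4), and no call was made for the other 5 tested endothelial genes. The part of these transcripts in the phase differences was not tested, and without cells holding 3 or more UMIs of vascular, meningeal or microglial genes 411 genes were called.

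**Figure D5:**
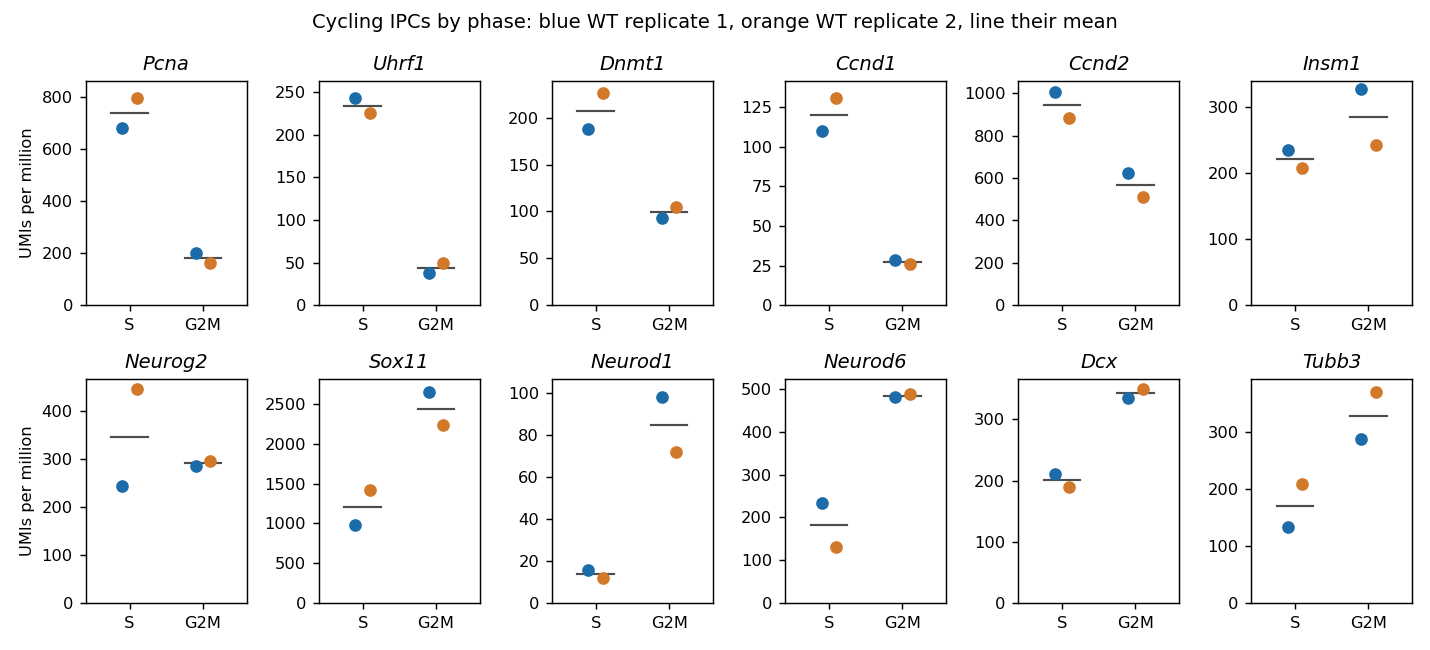
Counts per 1000000 UMIs (CPM) of 12 genes in S phase and G2/M cycling IPCs, with 1 point per library and a line at their mean. *Pcna*, *Uhrf1*, *Dnmt1*, *Ccnd1* and *Ccnd2* are higher in S phase, *Sox11*, *Neurod1*, *Neurod6*, *Dcx* and *Tubb3* are higher in G2/M, and *Neurog2* overlaps between the phases.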

How the data were processed

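Both 10x Genomics 3' v3.1 libraries of dissociated cortex (WT replicates 1 and 2, 1 group) were read. The authors deposited whole UMI counts per gene and barcode from Cell Ranger, version 7.0.0 in the submitters' processing notes and 7.1.0 in the file headers, on mm10. The 32285 genes listed were used as counted. No columns were left out.

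Barcodes with 1500 to 60000 UMIs and under 10% mitochondrial UMIs were kept. Populations were gated on UMI counts as described, since no cell annotation was used here. Counts were added up per library and population. A gene entered the fit where 2 or more of these sums reached 10 counts. The fit used edgeR 4.0.16 in R 4.3.3, with TMM scaling, glmQLFit and glmQLFTest, the library as a block, Benjamini-Hochberg adjustment over all genes, and a call at an adjusted p under 0.05. The libraries pair the populations because every population comes from both. The phase fit used scanpy 1.11.5 scores with S phase and G2/M parts of the cycling IPCs and RGCs, and cells of neither phase were left out. A gene at 0 in a population was given a lower bound from 3 counts over the population, in CPM of the pooled libraries. The scripts were tested on simulated data. Marker lists of interneurons, oligodendrocytes, vessels, meninges, microglia, red cells and Cajal-Retzius cells were also summed.

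The members and gene lists were chosen with earlier results of these data known. Named genes were the 10 called genes with the largest and the 10 with the smallest fold change (5 and 5 for the interaction and the phases) with at least 20 CPM in both libraries of the higher population and the same direction in both, outside gate, cycle list, ribosomal, mitochondrial, globin, histone and sex-linked genes, plus a fixed set by name and at most 4 further members of a list. Genes named beyond this rule (from lists with 5 or fewer calls, *Fabp7*, *Dcx*, *Tubb3* and *Cdk4* among them, and *Mcm6* for its promoter) were chosen after their values were seen. Alternatives were DESeq2 1.42.0, its size factors, no count filter, no block, no high Scrublet barcodes (0.8% per 1000 barcodes), a UMI band, stricter gates and fewer populations. Promoters and gene positions came from RefSeq (GRCm38.p6).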

Additional observations from a re-analysis of the deposited data

Results flagged for a closer look

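A group of 9 named genes stood out because their change with cycling was not the same in IPCs as in RGCs by the interaction test of edgeR, with log2 values adjusted over 15062 genes. The interactions above 0 were those of *Pde1a* (5.72), *Grm5* (3.95), *Slc39a11* (3.26), *Tesk2* (2.88) and *Spc25* (2.88). Those below 0 were *Pkdcc* (-2.48), *Dscaml1* (-1.59), *Malat1* (-0.79) and *Calm2* (-0.77).

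*Pde1a*, a calcium-dependent phosphodiesterase, was at 27.6 and 33.8 CPM in cycling against 6.41 and 6.42 CPM in non-cycling IPCs, and at 1.69 and 2.15 CPM in cycling RGCs. Its level in non-cycling RGCs was 44.5 CPM in replicate 1 and 0 in replicate 2. *Spc25*, a kinetochore gene, was at 303 and 259 CPM against 5.34 and 4.59 in IPCs and at 251 and 276 CPM against 7.42 and 68.5 in RGCs. *Slc39a11*, a zinc transporter gene, was at 92.5 and 81.4 CPM against 122 and 103 in IPCs and at 8.43 and 12.9 CPM against 37.1 and 251 in RGCs. *Grm5*, a glutamate receptor gene, was at 9.74 and 30.06 CPM against 17.1 and 13.8 in IPCs and at 3.37 and 12.9 CPM against 77.95 and 106.5 in RGCs. *Tesk2* was at 27.6 and 32.6 CPM against 11.7 and 7.34 in IPCs and at 32.02 and 15.1 CPM against 103.9 and 15.2 in RGCs. The non-cycling RGCs were 26 and 41 cells, with a median of 10655.5 and 4465 UMIs against 12075 and 8941 in cycling RGCs. Mural genes summed to 330 and 76.1 CPM in non-cycling RGCs and to 21.9 and 15.1 CPM in cycling RGCs. Meningeal genes summed to 119 and 15.2 CPM and to 16.9 and 118 CPM. The part of depth and of these transcripts in the interactions was not tested.

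*Calm2* was at 1089 and 1091 CPM in cycling against 592 and 601 CPM in non-cycling IPCs, and at 861 and 907 CPM against 319 and 300.5 CPM in RGCs. *Dscaml1*, an adhesion gene, was at 206 and 219 CPM against 401 and 460 in IPCs and at 69.1 and 92.6 CPM against 74.2 and 41.8 in RGCs. *Pkdcc* was at 32.5 and 27.6 CPM against 42.2 and 47.7 in IPCs and at 80.9 and 43.1 CPM against 14.8 and 22.8 in RGCs. The size of several interactions differed by library. In replicates 1 and 2 alone the log2 value was 6.29 and 1.61 for *Pde1a*, 1.68 and 3.84 for *Slc39a11*, 0.999 and 3.78 for *Spc25*, 2.93 and 2.22 for *Tesk2*, -2.64 and -1.60 for *Pkdcc* and -0.83 and -2.16 for *Dscaml1*. Without the library block the calls of *Pde1a*, *Slc39a11*, *Tesk2*, *Spc25*, *Pkdcc*, *Dscaml1*, *Malat1* and *Calm2* were lost.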

How the results depend on the processing

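The cycling share of *Eomes*-positive cells was 16.6%. It was 13.3% without the high Scrublet barcodes, 14.1% among cells of 4000 to 15000 UMIs, 12.3% with 4 or more cycle UMIs and 6.14% after thinning to 1500 UMIs, and 15.5% to 17.6% with either library left out. The 1937 calls between cycling and non-cycling IPCs became 1204 with DESeq2 (882 higher, 322 lower). The 27 interaction calls became 46 with DESeq2, 106 without the count filter, 3 with no library block, 88 without the high Scrublet barcodes, 80 in the UMI band, 63 with 3 or more *Eomes* UMIs, 64 with 4 or more cycle UMIs, 9 with only the compared populations and 66 without cells holding vascular, meningeal or microglial UMIs, a setting chosen after seeing the data. The 429 phase calls became 231 in the UMI band. The calls between cycling IPCs and cycling RGCs numbered 1522 to 1915 in every alternative, against 1841. Between cycling IPCs and RGCs the called difference of *Erbb4* went to 0.21 in the UMI band. Of the values that had not been called, the gate gene *Top2a* went from 0.01 to -0.67 in the UMI band, and *Cdkn1c* from -0.85 to 1.75 without the vascular, meningeal or microglial cells. The causes were not tested. With 1 library left out there were no residual degrees of freedom within a population, so only log2 ratios were computed. Among called genes of the lists and named genes with over 3 UMIs in each population, 1 library alone gave a fold that differed from the fit by over 1.5 times for 27 of 156 genes between cycling and non-cycling IPCs, 20 of 93 against RGCs, 5 of 13 in the interaction and 18 of 99 between phases, and the sign turned for 1 gene in each of these but the interaction (*Cldn5*, *Npy* and *Fabp7*). The phase and interaction results rest on 9 S phase cells and 26 non-cycling RGCs in replicate 1.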
